A study of Mus musculus with 9 samples.

Results

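The 41 genes described here are a list of cell cycle genes that was given by name. It runs from the licensing of replication origins through the G1 cyclins and their kinases to the machinery of mitosis, and it was matched by symbol to 41 of the 55487 genes in the deposited tables. The libraries held the poly(A) RNA of splenic naive CD4+ T cells, helper T cells that have not met antigen, from wild-type (WT) C57BL6/J mice, in 3 groups of 3 libraries. The groups were cells of mice with no treatment, cells of mice given anti-IL-1b, an antibody against the inflammatory cytokine IL-1b, on 10 consecutive days, and cells of mice given MCC950, a small-molecule inhibitor of the NLRP3 inflammasome that releases mature IL-1b, for 10 days. All groups share genotype, strain, tissue and cell type, and the labels give no age, sex, dose, sort gate or batch and no vehicle or control antibody. Whether a group's libraries came from different mice is not stated, so p-values measure only the spread between libraries, which may be technical.

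A naive T cell rests outside the division cycle until antigen arrives. In G1, D-type cyclins with Cdk4 and Cdk6, and then E-type cyclins with Cdk2, phosphorylate the pocket proteins Rb1 and Rbl2 and so release E2F target genes, which hold much of the replication machinery. Cdc6 and Cdt1 load the Mcm2 to Mcm7 ring onto origins, Cdc45 and the GINS complex turn that ring into the active helicase, and Pcna, the sliding clamp, holds the polymerases on DNA. Mitotic genes are switched on later by the B-MYB and FOXM1 complexes. In resting cells the DREAM complex, built on Rbl2 or a related pocket protein with E2F4, keeps both sets down through E2F sites and through the CHR (cell cycle genes homology region), often beside CCAAT boxes bound by NF-Y.

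The promoters of 6 of these genes are shown: the replication and mitosis genes that had a window and were called with both agents, a choice made after their values were seen. Each is the window from 250 bases before to 50 bases after the transcription start in RefSeq's GRCm38.p6 annotation, the assembly that mm10 represents, written 5′ to 3′ on the gene's strand. Capitals mark 3 motifs, searched on both strands: an E2F site (TTTGGCGC, TTTCCCGC or TTTCGCGC), the CHR (TTTGAA) and the CCAAT box (CCAAT). The replication genes are Pcna at chr2:132253131-132253430 (minus strand), Cdt1 at chr8:122567765-122568064 (plus strand) and Mcm6 at chr1:128359656-128359955 (minus strand). The mitosis genes are Mki67 at chr7:135716330-135716629 (minus strand), Top2a at chr11:99024140-99024439 (minus strand) and Kif11 at chr19:37376132-37376431 (plus strand).
Pcna: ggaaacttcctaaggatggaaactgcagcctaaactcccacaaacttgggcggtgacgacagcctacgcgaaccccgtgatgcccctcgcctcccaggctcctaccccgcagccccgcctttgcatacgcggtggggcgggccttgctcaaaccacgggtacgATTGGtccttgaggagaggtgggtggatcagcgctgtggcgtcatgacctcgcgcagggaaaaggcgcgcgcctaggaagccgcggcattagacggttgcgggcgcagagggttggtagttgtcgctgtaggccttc
Cdt1: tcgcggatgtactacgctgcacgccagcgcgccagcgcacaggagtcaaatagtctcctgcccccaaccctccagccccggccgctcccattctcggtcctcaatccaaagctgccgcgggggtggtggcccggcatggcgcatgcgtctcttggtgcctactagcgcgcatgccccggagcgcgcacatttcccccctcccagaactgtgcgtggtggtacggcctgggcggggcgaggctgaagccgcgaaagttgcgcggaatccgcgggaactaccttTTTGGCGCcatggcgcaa
Mcm6: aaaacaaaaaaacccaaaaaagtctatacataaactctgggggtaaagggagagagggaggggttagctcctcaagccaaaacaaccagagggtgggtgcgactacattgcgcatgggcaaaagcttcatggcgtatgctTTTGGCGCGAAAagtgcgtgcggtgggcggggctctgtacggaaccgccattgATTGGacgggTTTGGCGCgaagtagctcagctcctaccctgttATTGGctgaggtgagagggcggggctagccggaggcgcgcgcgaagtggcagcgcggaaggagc
Mki67: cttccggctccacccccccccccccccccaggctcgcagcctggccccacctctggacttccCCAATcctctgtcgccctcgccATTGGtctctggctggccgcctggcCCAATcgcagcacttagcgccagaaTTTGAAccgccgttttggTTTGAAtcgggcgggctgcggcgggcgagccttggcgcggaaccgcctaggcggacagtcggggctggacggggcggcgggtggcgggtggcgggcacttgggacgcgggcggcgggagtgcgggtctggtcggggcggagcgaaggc
Top2a: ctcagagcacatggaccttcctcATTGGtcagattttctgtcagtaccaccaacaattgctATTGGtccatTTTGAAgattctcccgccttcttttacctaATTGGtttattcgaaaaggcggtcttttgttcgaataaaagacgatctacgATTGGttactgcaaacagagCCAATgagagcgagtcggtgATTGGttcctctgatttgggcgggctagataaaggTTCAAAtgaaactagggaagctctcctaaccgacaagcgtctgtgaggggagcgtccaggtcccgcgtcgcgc
Kif11: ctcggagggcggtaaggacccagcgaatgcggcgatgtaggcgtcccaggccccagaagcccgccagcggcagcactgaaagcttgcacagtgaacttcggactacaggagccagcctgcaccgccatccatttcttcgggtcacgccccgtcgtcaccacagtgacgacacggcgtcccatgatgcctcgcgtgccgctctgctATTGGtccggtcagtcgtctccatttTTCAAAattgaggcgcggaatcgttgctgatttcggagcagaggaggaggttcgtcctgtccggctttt

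The printed windows differ in which motif they hold. Mcm6 has 3 E2F matches, 2 of them overlapping each other, and 2 CCAAT boxes, and Cdt1 has 1 E2F match inside its first 50 transcribed bases and no other match. Pcna has 1 CCAAT box. Mki67 has 2 CHR matches and 3 CCAAT boxes, Top2a has 2 and 6, and Kif11 has 1 and 1. No match of one motif overlapped a match of another in these 6 windows. Across the list, 33 of the 41 genes had a window among 27025 genes with 32851 windows. A gene with several windows counted as matched if any of them held the motif. An E2F match occurred in 7 of 15 replication genes (46.7%), in 1 of 12 mitosis genes (8.33%) and in 2.12% of all genes. Among those replication genes, Mcm7 and Uhrf1 had E2F matches in only 1 of their windows. A CHR match occurred in 9 of 12 mitosis genes (75%), in 2 of 15 replication genes (13.3%) and in 20.2% of all genes. CCAAT boxes occurred in 11 of 12 mitosis genes (91.7%), 10 of 15 replication genes (66.7%) and 41.1% of all genes. A match describes the letters in a window and is not evidence of binding.

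The libraries held between 14775375 and 21394797 expected counts each, and 1 count was worth between 0.0495 and 0.0656 CPM (counts relative to the scaled total of the library). Where 3 means ± SD follow one another below, they are those of the untreated, the anti-IL-1b and the MCC950 group, in that order (n = 3 libraries each). Naive T cell markers were abundant in every library, their 11 genes summing to 7669 to 7747 CPM in the untreated, 7533 to 7568 in the anti-IL-1b and 6860 to 6881 in the MCC950 group, with Cd4 at 850 ± 9.73, 903 ± 6.98 and 824 ± 5.25 CPM. The untreated group stood apart in transcripts of other cells and in stress genes. The 12 B cell markers summed to 17.2 to 22.3 CPM in the untreated, 77.9 to 81.9 in the anti-IL-1b and 81.6 to 96.8 in the MCC950 group. The 10 neutrophil markers, of which 7 were at 0 in every untreated library, summed to 0 to 0.346, 23.5 to 26.8 and 14.8 to 16.9 CPM. The 15 heat shock and immediate early genes summed to 24990 to 25350, 5854 to 6019 and 6761 to 6918 CPM, and all 15 were lower with each agent. In a bulk sample, fewer cells of a type and less RNA per cell cannot be told apart.

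In untreated cells the list spanned a wide range of levels, compared here in TPM (a level per length of transcript, scaled to one common total per library). The most abundant were Pcna at 227 ± 1.57 TPM, Ccnd3 at 213 ± 15.01 TPM and Ccnd2 at 164 ± 22.3 TPM (mean ± SD, n = 3). Pcna and Ccnd3 overlapped across libraries, Ccnd2 lay below both, and Cdk4 below all 3. Cdk4 at 87.5 ± 5.52 TPM and Mcm7 at 64.4 ± 3.23 TPM came next, with no overlap between them. Transcripts of the other MCM subunits lay between 20.8 ± 1.49 TPM for Mcm6 and 36.9 ± 1.12 TPM for Mcm4, while the loader Cdc6 was at 0.923 ± 0.475 TPM. All 15 mitosis genes were low. Cdc20, the activator of the anaphase-promoting complex, was the highest of them at 3.06 ± 0.616 TPM, and Bub1, a spindle checkpoint kinase, was at 0 in all 3 untreated libraries. The mitotic cyclins Ccna2, Ccnb1 and Ccnb2 had 0.287 ± 0.130 TPM, 0.630 ± 0.516 TPM and 0.303 ± 0.146 TPM.

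**Figure D1:**
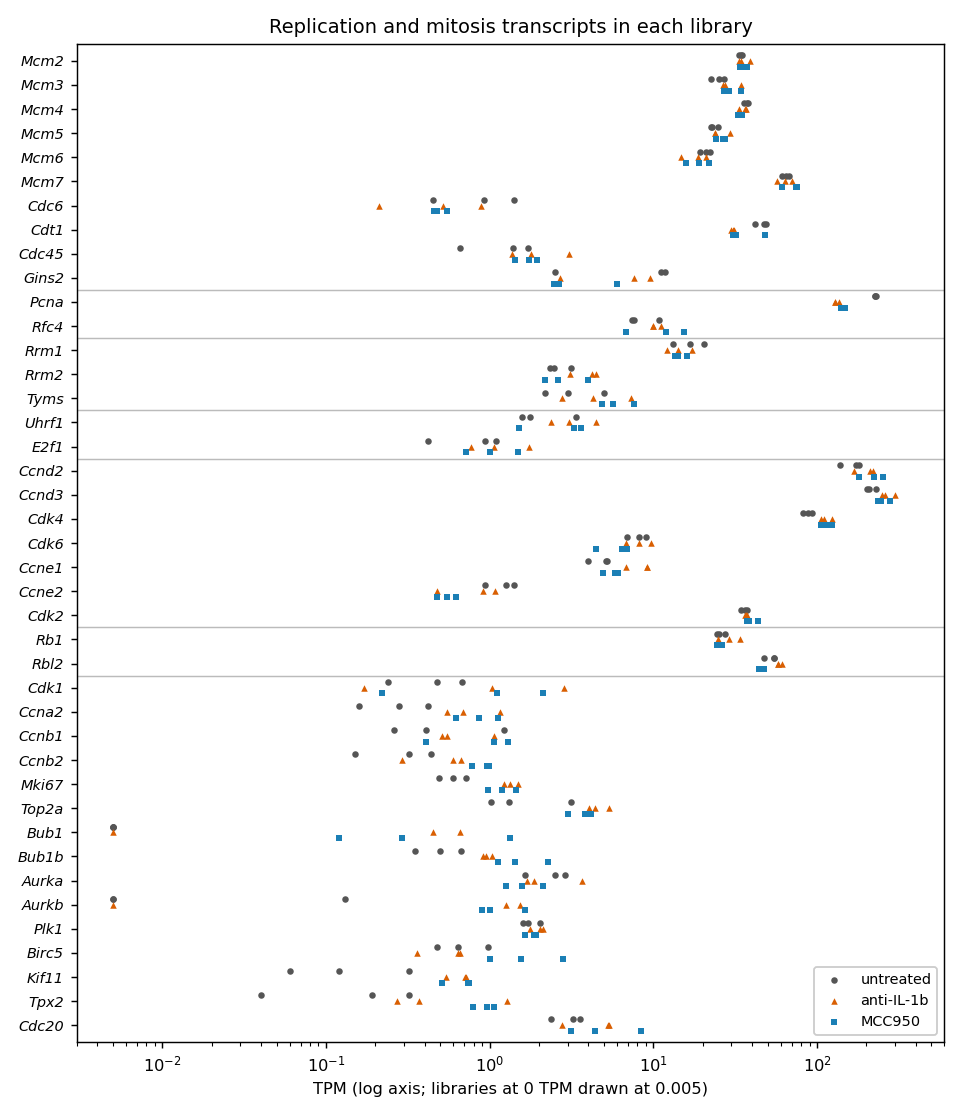
Level of each of the 41 genes in every library, in TPM on a log axis (libraries at 0 are drawn at 0.005), grouped by role, with one symbol per group. Pcna, the D-type cyclins, Cdk4 and the MCM genes lie to the right, and the 15 mitosis genes lie to the left, with untreated means of at most 3.06 TPM.

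Differences between groups were tested with edgeR's quasi-likelihood test on the rounded expected counts, with Benjamini-Hochberg adjustment over 13374 genes, and all adjusted p-values below are from that test unless another is named. Of the 41 genes, 39 were high enough to test, and Bub1 and Aurkb were not. Of the 39, 32 passed the filter (0.577 CPM in at least 3 libraries) in the untreated libraries alone, and the other 7, all mitosis genes, passed with the help of inhibitor libraries: Cdk1, Ccna2, Ccnb1, Ccnb2, Birc5, Kif11 and Tpx2. With the antibody, 5 of the 39 were higher and 5 lower than in untreated cells (25.6%), where 34% of all tested genes were called (15.4% higher, 18.5% lower). With MCC950, 7 were higher and 6 lower (33.3%), where 36.8% of all genes were called (17.7% higher, 19.1% lower). Both shares are under the background, so calls were no more frequent in the list than among all genes. The median log2 fold change of the 39 genes was 0.08 and 0.09, beside 0 and 0.01 for all genes. Both comparisons use the same 3 untreated libraries.

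**Figure D2:**
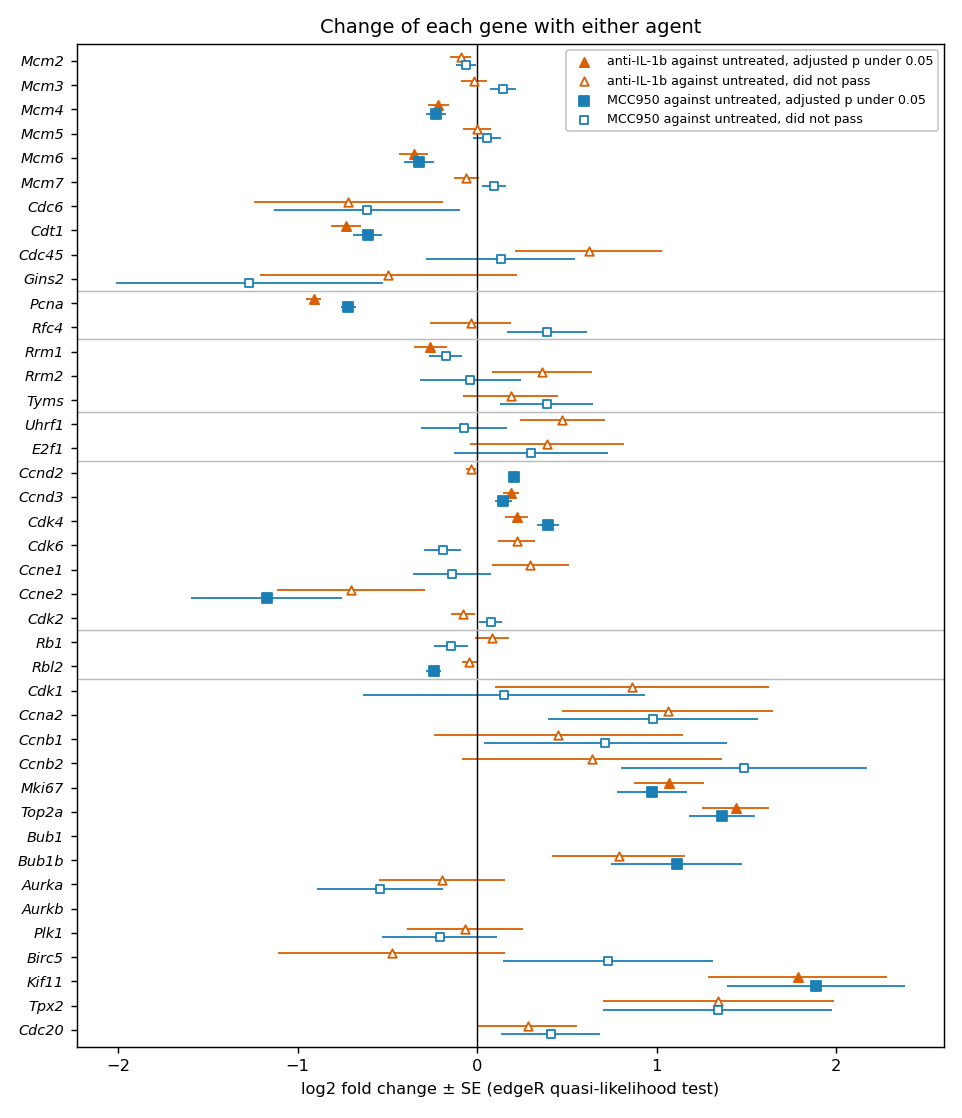
log2 fold change ± SE of each tested gene with the antibody and with MCC950, each against the same 3 untreated libraries, from edgeR's quasi-likelihood test. Filled symbols passed an adjusted p of 0.05 and open ones did not. Replication genes that passed lie to the left of 0 and mitosis genes that passed lie to the right.

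Among the 10 genes of origin licensing and the helicase, Cdt1, Mcm6 and Mcm4 fell with each agent and none rose under TMM scaling. Mcm3 passed as higher with MCC950 under upper-quartile scaling (0.18, adjusted p = 0.0449). Under library totals, Mcm3 and Mcm7 both passed as higher with MCC950 (0.26 and 0.20, adjusted p = 0.0037 and 0.0121). The summed level of the 10 was 444.7 ± 2.85, 387.1 ± 11.1 and 399 ± 5.97 CPM. Cdt1, the licensing factor that brings the MCM ring to origins and is destroyed once S phase starts (chromosome 8, 122568015 to 122573554), had 58.03, 51.01 and 57.4 CPM in untreated, 35.5, 30.8 and 33.9 in anti-IL-1b and 40.9, 32.8 and 35.4 in MCC950 libraries. Each inhibitor library lay below every untreated one. The log2 fold change was -0.73 ± 0.082 (SE, adjusted p = 1.97e-09) with the antibody and -0.61 ± 0.081 (SE, adjusted p = 7.18e-08) with MCC950. Mcm6, a subunit of the ring, had 40.3, 37.95 and 37.3 CPM in untreated, 28.2, 31.1 and 31.2 in anti-IL-1b and 31.1, 29.2 and 31.9 in MCC950 libraries. Its inhibitor libraries again lay below its untreated ones, with log2 fold changes of -0.35 ± 0.083 (SE, adjusted p = 0.000749) and -0.32 ± 0.082 (SE, adjusted p = 0.00158). Mcm4, another subunit, had 88.6, 93.1 and 95.2 CPM in untreated, 83.3, 79.7 and 75.3 in anti-IL-1b and 77.2, 76.4 and 82.3 in MCC950 libraries, and changed by -0.22 ± 0.056 (SE, adjusted p = 0.00222) and -0.23 ± 0.056 (SE, adjusted p = 0.000959). The lowest untreated library of Mcm4 lay above every inhibitor library, by a narrower margin than for Cdt1.

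The other 4 subunits of the same ring did not pass the test with either agent. Mcm2 had log2 fold changes of -0.092 and -0.061, Mcm3 of -0.016 and 0.14, Mcm5 of 0 and 0.054, and Mcm7 of -0.060 and 0.091 (adjusted p from 0.12 to 0.998). Cdc6, the partner of Cdt1 in loading, was at 1.38 ± 0.281, 0.835 ± 0.367 and 0.895 ± 0.239 CPM. Its inhibitor libraries all lay below its untreated ones, at adjusted p = 0.316 and 0.381. Cdc45, the helicase cofactor, was at 1.45 ± 0.443, 2.23 ± 0.757 and 1.58 ± 0.156 CPM. The calls for Mcm4 depended on the scale: with library totals in place of TMM factors its log2 fold changes were -0.089 and -0.12 (adjusted p = 0.213 and 0.0864). On log2(TPM + 1) with limma, neither Mcm4 nor Mcm6 passed with either agent (Mcm6 adjusted p = 0.349 and 0.511), and Cdt1 passed with the antibody only (adjusted p = 0.132 with MCC950).

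Pcna had the largest fall of the 17 replication genes with the antibody. The sliding clamp, which also gathers repair and chromatin factors at the fork (chromosome 2, 132249162 to 132253314), had 201, 199 and 202 CPM in untreated, 109, 106 and 105 in anti-IL-1b and 124, 124 and 118 in MCC950 libraries. The libraries of a group lay close together, and the 3 groups were fully separate. Relative to untreated cells the level was 0.532 times as high with the antibody and 0.608 times as high with MCC950, log2 fold changes of -0.91 ± 0.041 (SE, adjusted p = 4.12e-21) and -0.72 ± 0.040 (SE, adjusted p = 5.65e-18). These 2 calls held under all 19 alternatives. Rfc4, a subunit of the loader that opens the clamp, was at 5.57 ± 0.957, 5.42 ± 1.10 and 7.25 ± 2.45 CPM and did not pass, except with MCC950 when MCC950 replicate 1 was left out (0.63, adjusted p = 0.0276). The processed pseudogene Pcna-ps2 shares 19.1% of the 50-base stretches of Pcna, but had only 2.01 to 12.05 counts per library.

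Of the 3 nucleotide supply genes, 1 was called. Rrm1, the large subunit of ribonucleotide reductase, which makes deoxynucleotides, had 33.2, 34.5 and 31.1 CPM in untreated, 30.3, 24.2 and 27.96 in anti-IL-1b and 29.7, 28.1 and 29.8 in MCC950 libraries. The anti-IL-1b and MCC950 libraries all lay below the untreated ones, and the call was made with the antibody, -0.26 ± 0.091 (SE, adjusted p = 0.0229), and not with MCC950, -0.18 ± 0.090 (SE, adjusted p = 0.126). The antibody call ended in 3 of the fits that left out a library: without untreated replicate 1 (adjusted p = 0.0625), untreated replicate 2 (0.0928) or anti-IL-1b replicate 2 (0.171). It also ended with library totals (0.251), upper-quartile scaling (0.0674) and limma on log2(TPM + 1) (0.425). Rrm2, the small subunit made in S phase, was at 3.03 ± 0.228, 3.89 ± 0.821 and 2.94 ± 0.691 CPM. Tyms, which makes thymidylate, was at 3.30 ± 1.12, 3.78 ± 0.229 and 4.35 ± 0.185 CPM. Neither passed against untreated cells. Uhrf1, which guides maintenance DNA methylation behind the fork, was at 4.03 ± 0.414, 5.61 ± 1.45 and 3.82 ± 0.486 CPM, and the activator E2f1 at 1.53 ± 0.657, 1.99 ± 0.832 and 1.88 ± 0.688 CPM, again with no call at adjusted p from 0.122 to 0.842. Uhrf1 passed as higher with the antibody when scaled by library totals (0.60, adjusted p = 0.0399) or without anti-IL-1b replicate 1 (0.65, adjusted p = 0.0475). Over the 17 replication genes, E2f1 and Uhrf1 included, 5 were lower and 0 higher with the antibody and 4 lower and 0 higher with MCC950 under TMM scaling, with a median log2 fold change of -0.06 in both. The shares called, 29.4% and 23.5%, are under the 34% and 36.8% of all genes called in either direction, and above the 18.5% and 19.1% called lower.

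**Figure D3:**
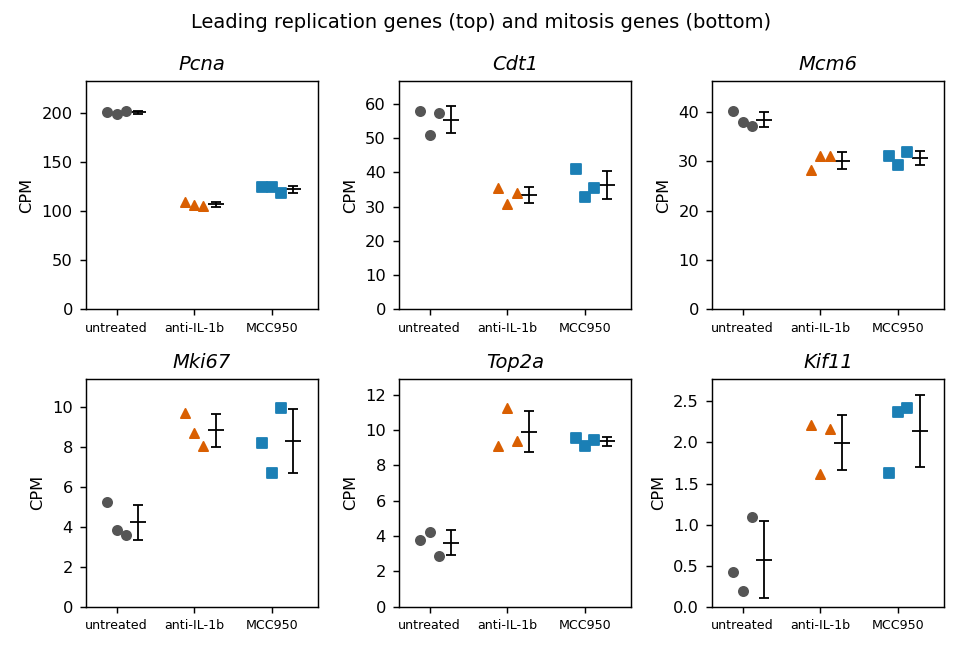
CPM in each library of Pcna, Cdt1 and Mcm6 (top) and of Mki67, Top2a and Kif11 (bottom), with mean ± SD of 3 libraries beside the points of each group. All inhibitor libraries lie below all untreated ones in the upper panels and above them in the lower panels.

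Ccnd3 and Cdk4, which act earlier in the cycle, rose with both agents by small amounts, and Ccnd2 rose with MCC950. Ccnd3, a cyclin that partners Cdk4 and Cdk6 in lymphocytes, had 213, 194 and 202 CPM in untreated, 248, 225 and 219 in anti-IL-1b and 235, 211 and 227 in MCC950 libraries. It rose by 0.19 ± 0.045 (SE, adjusted p = 0.00155) on the log2 scale with the antibody, where the groups did not overlap, and by 0.15 ± 0.045 (SE, adjusted p = 0.0115) with MCC950, where they did. The MCC950 call ended in 4 of the fits that left out a library, without untreated replicate 2 or 3 or MCC950 replicate 1 or 3, at adjusted p from 0.0522 to 0.0839, and on log2(TPM + 1) (0.25, adjusted p = 0.0575). Ccnd2, the other D-type cyclin of the list, had 555, 564 and 569 CPM in untreated, 559, 543 and 542 in anti-IL-1b and 636, 645 and 661 in MCC950 libraries. It rose with MCC950, 0.20 ± 0.028 (SE, adjusted p = 2.07e-07), with no overlap, a call that ended on log2(TPM + 1), where its libraries spread more (0.41, adjusted p = 0.0726). With the antibody its change was -0.037 ± 0.028 (SE, adjusted p = 0.331), which turned to 0.089 (adjusted p = 0.00989) with library totals. Cdk4, the G1 kinase, had 64.7, 71.2 and 65.4 CPM in untreated, 86.4, 74.7 and 73.2 in anti-IL-1b and 86.5, 84.8 and 93.3 in MCC950 libraries. All inhibitor libraries lay above the untreated ones, with log2 fold changes of 0.22 ± 0.063 (SE, adjusted p = 0.00593) and 0.39 ± 0.063 (SE, adjusted p = 2.49e-06). Without anti-IL-1b replicate 1, the highest library of its group, the antibody value was 0.14 (adjusted p = 0.114).

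Cdk6, the second partner of the D-type cyclins, had 25.1, 29.6 and 26.8 CPM in untreated, 26.2, 34.4 and 34.7 in anti-IL-1b and 22.2, 26.4 and 22.8 in MCC950 libraries, and was not called against untreated cells, at 0.22 ± 0.10 (SE, adjusted p = 0.099) and -0.19 ± 0.10 (SE, adjusted p = 0.15). It passed with the antibody under upper-quartile scaling (0.27, adjusted p = 0.0382), with library totals (0.35, 0.00666) and without anti-IL-1b replicate 1 (0.34, 0.0108). Ccne2, an E-type cyclin that drives entry into S phase, was scarce, with 1.89, 2.82 and 2.51 CPM in untreated, 1.63, 0.838 and 1.97 in anti-IL-1b and 0.934, 1.06 and 1.21 in MCC950 libraries. All MCC950 libraries lay below all untreated ones, at a log2 value of -1.17 ± 0.42 (SE, adjusted p = 0.026), and the antibody value was -0.70 ± 0.41 (SE, adjusted p = 0.198). The MCC950 call ended without untreated replicate 2 or 3 or MCC950 replicate 1 or 2 (adjusted p from 0.0578 to 0.0929). Ccne1, the other E-type cyclin, was at 5.38 ± 1.54, 6.59 ± 0.783 and 4.87 ± 0.291 CPM, and Cdk2, their kinase, at 62.3 ± 2.59, 59.04 ± 0.844 and 65.6 ± 6.14 CPM, and neither passed. Ccne1 did pass with the antibody on log2(TPM + 1) (0.69, adjusted p = 0.012), and Cdk2 with MCC950 under library totals (0.19, adjusted p = 0.019). The 7 genes of this role summed to 929.9 ± 6.66, 956.1 ± 27.4 and 1055 ± 25.1 CPM.

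Of the pocket proteins, Rbl2 was lower with MCC950 and Rb1 was not called. Rbl2 (p130), the pocket protein of the DREAM complex in resting cells, had 145, 142 and 147 CPM in untreated, 139, 139 and 142 in anti-IL-1b and 119, 125 and 123 in MCC950 libraries. MCC950 libraries lay below all others. Against untreated cells the log2 fold change was -0.24 ± 0.041 (SE, adjusted p = 8.95e-06) with MCC950 and -0.045 ± 0.041 (SE, adjusted p = 0.436) with the antibody. On log2(TPM + 1) the MCC950 value did not pass (-0.19, adjusted p = 0.0687). Rb1, the retinoblastoma protein gene, was at 66.7 ± 6.52, 70.7 ± 8.22 and 60.2 ± 6.89 CPM and did not pass, at 0.084 ± 0.095 (SE, adjusted p = 0.554) and -0.15 ± 0.096 (SE, adjusted p = 0.261).

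Mitosis genes rose where they passed, from low levels. Of the 13 tested, 3 were higher and 0 lower with the antibody, and 4 higher and 0 lower with MCC950. These shares, 23.1% and 30.8%, are under the 34% and 36.8% of all genes called in either direction, and above the 15.4% and 17.7% called higher. Some of the 13 entered the test with the help of inhibitor libraries, which favours the higher direction. Top2a, the topoisomerase that untangles sister chromosomes (chromosome 11, 98992943 to 99024189), had 3.78, 4.26 and 2.88 CPM in untreated, 9.08, 11.2 and 9.38 in anti-IL-1b and 9.57, 9.09 and 9.44 in MCC950 libraries. Every inhibitor library stood above the highest untreated one. The fitted level was 2.71-fold higher with the antibody and 2.57-fold higher with MCC950, log2 fold changes of 1.44 ± 0.19 (SE, adjusted p = 4.48e-08) and 1.36 ± 0.19 (SE, adjusted p = 1.31e-07). Mki67, the gene of the Ki-67 protein that coats mitotic chromosomes and marks dividing cells, had 5.24, 3.86 and 3.61 CPM in untreated, 9.72, 8.70 and 8.07 in anti-IL-1b and 8.23, 6.71 and 9.93 in MCC950 libraries. It rose by 1.07 ± 0.20 (SE, adjusted p = 3.15e-05) and 0.97 ± 0.20 (SE, adjusted p = 0.000102) on the log2 scale, again with separate groups. Kif11, the motor that pushes spindle poles apart, had 0.427, 0.198 and 1.10 CPM in untreated, 2.21, 1.61 and 2.17 in anti-IL-1b and 1.63, 2.38 and 2.41 in MCC950 libraries. Its log2 fold changes of 1.79 ± 0.50 (SE, adjusted p = 0.00453) and 1.89 ± 0.50 (SE, adjusted p = 0.00237) rest on an untreated group near the detection limit. Kif11 is also one of the genes that entered the test through the inhibitor libraries, which favours the higher direction. Bub1b, the checkpoint gene of BubR1, had 1.71, 1.29 and 0.889 CPM in untreated, 2.39, 2.19 and 2.10 in anti-IL-1b and 3.09, 2.69 and 2.58 in MCC950 libraries. The groups did not overlap for either agent, but only the MCC950 value passed, 1.11 ± 0.36 (SE, adjusted p = 0.0141), beside 0.79 ± 0.37 (SE, adjusted p = 0.0988).

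Limits of these calls differ by gene. The Bub1b call ended without untreated replicate 3 (adjusted p = 0.0707) or MCC950 replicate 1 (0.0582), while its antibody value passed with library totals (0.91, adjusted p = 0.046). On log2(TPM + 1), Mki67 had 0.55 and 0.46 (adjusted p = 0.0756 and 0.135) and Top2a did not pass with MCC950 (0.79, adjusted p = 0.0574). With a pseudocount of 0.1, Mki67 had 1.05 and 0.89 (adjusted p = 0.0721 and 0.122) and Top2a had 1.11 with MCC950 (adjusted p = 0.0541), so these calls were lost there too.

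The 2 mitosis genes too low to test were at or next to 0 in untreated cells. Bub1 had 0, 0 and 0 CPM in untreated, 0, 0.322 and 0.328 in anti-IL-1b and 0.292, 0.370 and 0.274 in MCC950 libraries. Its counts added up to 0 in untreated, 10 in antibody and 17 in MCC950 cells. With a floor of 3 counts set for the untreated group, the ratios were 3.88 with the antibody and 5.82 with MCC950. The lower exact 95% limits of the ratio were 2.61 and 4.24, below those floor-based values. Aurkb, the kinase that corrects chromosome attachment, had 0.0610, 0 and 0 CPM in untreated, 0.349, 0.709 and 0 in anti-IL-1b and 0.7003, 0.475 and 0.494 in MCC950 libraries, from 1, 17 and 30 counts in all. That is a ratio to untreated of 19.8 (95% exact interval 3.1 to 826) with the antibody and 30.8 (5.12 to 1260) with MCC950. For both genes 1 anti-IL-1b library was at 0, so that group overlaps the untreated one, and the MCC950 group does not. Floors and intervals cover counting error only.

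The other mitosis genes did not pass with either agent, except Tpx2, a spindle assembly factor, when untreated replicate 3 was left out (2.10 and 2.10, adjusted p = 0.0434 and 0.0398). Aurka, the spindle pole kinase, was at 2.63 ± 0.787, 2.30 ± 0.639 and 1.81 ± 0.384 CPM, and Plk1, the polo kinase of mitotic entry, at 2.62 ± 0.327, 2.49 ± 0.433 and 2.26 ± 0.356 CPM, with log2 fold changes of -0.20 and -0.068 with the antibody and -0.54 and -0.21 with MCC950. Cdc20 was at 2.80 ± 0.464, 3.40 ± 0.531 and 3.72 ± 0.734 CPM. Ccna2, Ccnb1, Ccnb2, Cdk1, the kinase of these cyclins, and Tpx2 had positive fitted values with both agents, from 0.15 for Cdk1 with MCC950 to 1.49 for Ccnb2 with MCC950, and none passed (adjusted p from 0.0879 to 0.91). Their untreated means were between 0.296 and 0.584 CPM. Birc5, the survivin gene of the chromosomal passenger complex, had -0.48 and 0.73.

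Summed over all 15 genes, mitosis transcripts stood at 20.8 ± 1.39, 36.6 ± 3.18 and 36.9 ± 1.72 CPM, with every inhibitor library (34.5 to 40.2) above every untreated one (19.2 to 21.8). Top2a and Mki67 made up most of that difference, summing to 7.87 ± 1.28, 18.7 ± 1.23 and 17.7 ± 1.79 CPM, and the other 13 genes summed to 12.9 ± 0.664, 17.8 ± 2.20 and 19.2 ± 0.516 CPM. Some markers of other cells moved in the same direction, B cell markers at 19.4 ± 2.63, 79.99 ± 2.02 and 88.3 ± 7.77 CPM and neutrophil markers at 0.150 ± 0.178, 25.2 ± 1.68 and 15.5 ± 1.16 CPM. Of the 12 B cell markers, 11 were higher with each agent, and so were all 6 tested neutrophil markers and 3 of 4 tested monocyte, macrophage and dendritic cell markers (sums of 3.19 to 4.75, 11.9 to 13.3 and 11.2 to 13.2 CPM). The remaining marker of that last list, Cd68, was lower with the antibody (log2 fold change -1.29) and was not called with MCC950. The cytotoxic and natural killer markers summed to 61.7 to 69.5 CPM in untreated, 89.1 to 97.5 in anti-IL-1b and 93.9 to 98.3 in MCC950 libraries. Of 7 tested, 3 were higher with each agent, and Ccl5 was lower with the antibody (-1.51) and not called with MCC950. Of 5 tested red cell genes, 4 were higher with each agent and Tfrc, which made up most of their sum, was lower (84.4 ± 4.79, 48.2 ± 4.90 and 47.7 ± 2.14 CPM). The tested neutrophil genes and the 4 higher red cell genes lay under the filter in all untreated libraries. They entered the test through the inhibitor libraries, so their direction was fixed by the filter. The same held for Blk and Ebf1 among the B cell markers and for Csf1r and Itgax among the monocyte, macrophage and dendritic cell markers. Pax5 and Ms4a1, also B cell markers, reached the filter in only part of the untreated libraries. Among markers of precursor stages, Elane, of early neutrophil precursors, was at 0 in all 9 libraries and Klf1, of erythroblasts, was at 0.389 ± 0.212, 0.335 ± 0.328 and 0.385 ± 0.333 CPM, while Ngp and Ltf, granule genes of later neutrophil precursors, were at 0.0330 ± 0.0571, 4.35 ± 0.867 and 2.18 ± 1.12 CPM and 0 ± 0, 4.66 ± 0.382 and 2.87 ± 0.412 CPM and were among the higher genes. Other lists had lower sums in the inhibitor groups: plasma cell markers at 69.9 ± 2.5, 42.5 ± 2.24 and 46.3 ± 2.98 CPM, regulatory T cell markers at 82.3 ± 3.48, 44.4 ± 3.74 and 45.2 ± 2.52 CPM, and activated or memory T cell markers at 479 ± 14.9, 137.8 ± 1.33 and 125.6 ± 0.798 CPM. In untreated libraries Xbp1, Ctla4 and Cd69 were the largest parts of these sums, and single genes went both ways. Of 3 tested plasma cell markers, 1 was lower and 1 higher with each agent, the latter, Jchain, under the filter in all untreated libraries. With the antibody 1 of 5 regulatory T cell markers was higher and 1 lower, and with MCC950 2 and 1. Activated or memory markers, 7 tested, had 2 higher and 2 lower, and 2 and 3. Germinal centre B cell markers were at 55.3 ± 1.23, 47.3 ± 2.88 and 49.8 ± 6.45 CPM and thymocyte markers at 56.6 ± 1.97, 56.02 ± 5.47 and 53.2 ± 1.97 CPM. Stress transcripts went down from untreated to inhibitor libraries, as Pcna and Cdt1 did. The part of other cells and of the stress transcripts in these differences was not tested.

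**Figure D4:**
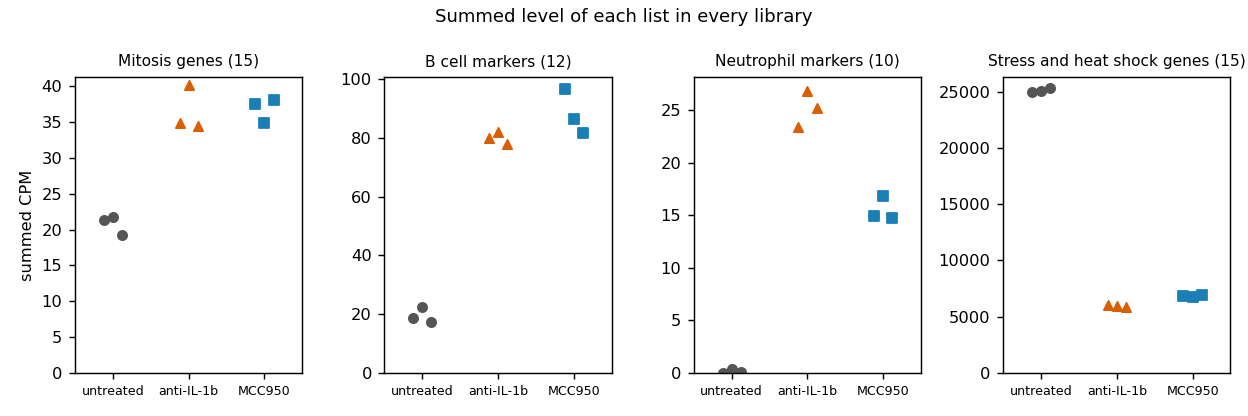
Summed CPM of the 15 mitosis genes, of 12 B cell markers, 10 neutrophil markers and 15 stress and heat shock genes in each library, one point per library and each panel on its own axis from 0. The first 3 panels are higher in all inhibitor libraries than in all untreated ones, and the last is lower.

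Between the agents, 4 of the 39 genes were called, 2 higher and 2 lower with the antibody than with MCC950 (10.3%), where 13.2% of all genes were called (6.13% higher, 7.11% lower). The untreated mean does not enter this contrast, although the untreated libraries share in the filter, the scaling and the estimate of spread. Pcna was lower with the antibody, -0.19 ± 0.042 (SE, adjusted p = 0.00115), and so was Ccnd2, -0.24 ± 0.028 (SE, adjusted p = 4.32e-08), with no overlap between the 2 agents' libraries in either gene, as the values above show. Rbl2 was higher with the antibody, 0.20 ± 0.042 (SE, adjusted p = 0.000846), also with no overlap. Cdk6 was higher too, 0.41 ± 0.10 (SE, adjusted p = 0.00503), although its libraries overlapped, and the call ended without anti-IL-1b replicate 2 (adjusted p = 0.0514) or replicate 3 (0.0536). On log2(TPM + 1) only the Rbl2 difference passed, and Pcna, Ccnd2 and Cdk6 did not (adjusted p = 0.072, 0.687 and 0.23). No mitosis gene passed between the agents. Top2a differed by 0.079 ± 0.17 (SE, adjusted p = 0.841), Mki67 by 0.093 ± 0.19 (SE, adjusted p = 0.824) and Kif11 by -0.10 ± 0.45 (SE, adjusted p = 0.931).

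Gins2, a subunit of the GINS complex, could not be assigned a stable level. Its 3 untreated libraries had 28.3, 30.8 and 6.59 CPM, its anti-IL-1b libraries 22.7, 17.4 and 6.23, and its MCC950 libraries 6.77, 14.3 and 6.09, so every group spanned a wide range and the 3 groups overlapped. Of the 50-base stretches of its transcripts, 65.4% also occur on the opposite strand of Gse1, an overlapping gene. The deposited Gins2 estimates were fractional in all 9 libraries, and Gins2 and Gse1 summed to a whole number in 9 of 9 (tolerance 0.015). Reads of the overlap had thus been divided between 2 genes on opposite strands. Summed with Gse1, the log2 fold change was 0.064 (adjusted p = 0.297) with the antibody and -0.12 (adjusted p = 0.0357) with MCC950, and 0.18 (adjusted p = 0.00441) between the agents, values made up mostly of Gse1. Gins2 alone gave -0.50 ± 0.72 (SE, adjusted p = 0.662) and -1.27 ± 0.74 (SE, adjusted p = 0.248).

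**Figure D5:**
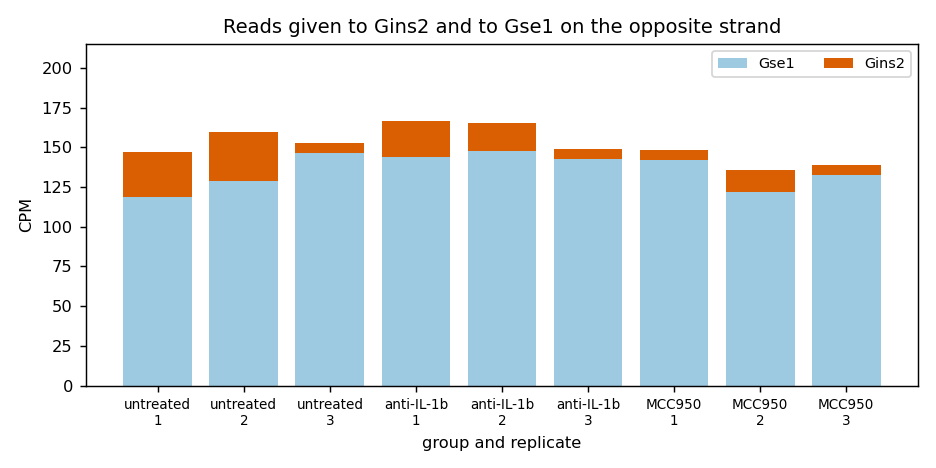
CPM given to Gins2 (upper part of each bar) and to Gse1, which overlaps it on the opposite strand (lower part), in each of the 9 libraries, named by group and replicate. The Gins2 part varies from 6.09 to 30.8 CPM, and its groups overlap.

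Another 3 genes share stretches with a neighbour on the opposite strand, and their counts with that neighbour also summed to whole numbers in 9 of 9 libraries. For Cdk4, which shares 17% of its stretches with Tspan31, the summed counts gave 0.19 (adjusted p = 0.00912) with the antibody and 0.38 (adjusted p = 8.5e-07) with MCC950, so both calls held. The difference between the agents, -0.18 ± 0.062 (SE, adjusted p = 0.0579) for Cdk4 alone, passed for the sum (-0.19, adjusted p = 0.0191). For Ccne2, 14.4% of whose stretches are shared with Ints8, the sum gave -0.14 (adjusted p = 0.0823) with MCC950, where most counts are those of Ints8. Ccna2 shares 11.4% with Exosc9, and no call was made for it either way. These sums were added as an alternative after the data were seen. Cdt1, Top2a, Mki67 and Kif11 showed no such sharing at or above 10% of their stretches.

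Other replication genes, a list of 57 with 55 tested, had 3 higher and 8 lower calls with the antibody (20%) and 5 higher and 7 lower with MCC950 (21.8%), a smaller share than among all genes. Slbp, which binds histone messages made in S phase, fell, with log2 fold changes of -0.62 ± 0.070 (SE, adjusted p = 2.25e-09) and -0.69 ± 0.070 (SE, adjusted p = 1.32e-10). Nasp, a histone chaperone, changed by -0.36 ± 0.060 (SE, adjusted p = 6.46e-06) and -0.25 ± 0.059 (SE, adjusted p = 0.000775), and Orc2, of the origin recognition complex, by -0.35 ± 0.082 (SE, adjusted p = 0.000902) and -0.34 ± 0.082 (SE, adjusted p = 0.00111). Samhd1, which destroys deoxynucleotides and is abundant in resting cells, rose by 0.24 ± 0.028 (SE, adjusted p = 6.74e-09) and 0.12 ± 0.028 (SE, adjusted p = 0.000872), and Dnmt1, the maintenance methyltransferase, by 0.12 ± 0.039 (SE, adjusted p = 0.0128) and 0.23 ± 0.039 (SE, adjusted p = 5.21e-06). Rnaseh2c, of the enzyme that removes ribonucleotides from DNA, was called with MCC950, 0.34 ± 0.096 (SE, adjusted p = 0.00513), and not with the antibody, 0.040 ± 0.099 (SE, adjusted p = 0.796). The other higher calls were Timeless with the antibody (0.18) and Pold1 and Rpa3 with MCC950 (0.19 and 0.40), named after their values were seen. Under library totals Nasp was not called with MCC950 (adjusted p = 0.0596). With library totals the antibody counts turned from 3 higher and 8 lower to 13 higher and 4 lower, so the direction of this list as a whole depends on the scaling.

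Other mitosis genes, 45 tested of 55, were called in both directions: 9 higher and 6 lower with the antibody (33.3%) and 7 and 7 with MCC950 (31.1%), near the background. With library totals the counts were 14 higher and 2 lower with the antibody and 11 and 5 with MCC950. Some genes of this list, such as Espl1 (0, 0.0990 and 0.262 CPM) and Ncapg (0.183, 0.495 and 0.262 CPM), lay under the filter in all untreated libraries. They entered the test through inhibitor libraries, which favours the higher direction. Kif22, a chromosome motor, rose by 0.82 ± 0.20 (SE, adjusted p = 0.00133) and 0.73 ± 0.20 (SE, adjusted p = 0.00358), and Ncapd2, of condensin, by 0.32 ± 0.078 (SE, adjusted p = 0.00118) and 0.20 ± 0.078 (SE, adjusted p = 0.0424). Cenpa, the histone variant of centromeres, was at 76.3 ± 8.24, 35.5 ± 1.24 and 30.99 ± 3.17 CPM and fell with both agents, the opposite direction to Top2a and Mki67, with log2 fold changes of -1.10 ± 0.080 (SE, adjusted p = 1.55e-14) and -1.30 ± 0.080 (SE, adjusted p = 1.25e-16). Rad21, of cohesin, fell, with log2 fold changes of -0.18 ± 0.039 (SE, adjusted p = 0.00034) and -0.30 ± 0.039 (SE, adjusted p = 3.13e-08). Smc4, of condensin, was higher with the antibody, 0.16 ± 0.030 (SE, adjusted p = 4.49e-05), and lower with MCC950, -0.17 ± 0.030 (SE, adjusted p = 1.07e-05). The Rad21 call with the antibody and the Smc4 call with MCC950 were lost with library totals (adjusted p = 0.321 and 0.118).

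Among other G1, E2F and DREAM genes, 31 tested of 33, 2 were higher and 8 lower with the antibody (32.3%) and 2 higher and 9 lower with MCC950 (35.5%). The antibody counts turned to 10 higher and 5 lower with library totals, where E2f4 passed (adjusted p = 0.00065) and Ccng2 did not (adjusted p = 0.055). Fbxw7, the ubiquitin ligase subunit that removes cyclin E and Myc, fell, with log2 fold changes of -0.47 ± 0.078 (SE, adjusted p = 6.04e-06) and -0.53 ± 0.077 (SE, adjusted p = 5e-07). Ccng2, a cyclin of resting cells, fell, with log2 fold changes of -0.26 ± 0.055 (SE, adjusted p = 0.00025) and -0.36 ± 0.055 (SE, adjusted p = 1.1e-06), and Myc, the growth regulator, fell by the same test, -0.30 ± 0.051 (SE, adjusted p = 7.79e-06) and -0.26 ± 0.051 (SE, adjusted p = 7.77e-05). Fbxo5, which restrains the anaphase-promoting complex, rose by 0.54 ± 0.14 (SE, adjusted p = 0.00196) and 0.48 ± 0.14 (SE, adjusted p = 0.00471). E2f4, the E2F of the DREAM complex, was called with MCC950, 0.17 ± 0.059 (SE, adjusted p = 0.0249), beside 0.13 ± 0.060 (SE, adjusted p = 0.0977) with the antibody, and the activator E2f3 with the antibody, 0.67 ± 0.25 (SE, adjusted p = 0.0333), beside 0.45 ± 0.25 (SE, adjusted p = 0.16) with MCC950. Of 5 tested CDK inhibitor genes (7 listed), 4 were lower and 0 higher with each agent (80%, beside 34% and 36.8% of all genes called), Cdkn1a among them having passed the filter through the untreated libraries alone; with library totals 3 were lower with MCC950, since Cdkn2d did not pass (adjusted p = 0.0766). Cdkn1b, the p27 inhibitor that holds resting T cells out of the cycle, was at 441 ± 5.16, 272 ± 13.02 and 252 ± 4.94 CPM, with log2 fold changes of -0.70 ± 0.034 (SE, adjusted p = 5.4e-20) and -0.81 ± 0.034 (SE, adjusted p = 3.92e-22). Cdkn2d, an inhibitor of Cdk4 and Cdk6, was at 77.4 ± 1.55, 61.5 ± 5.04 and 65.1 ± 2.34 CPM, with log2 fold changes of -0.33 ± 0.063 (SE, adjusted p = 5.5e-05) and -0.25 ± 0.062 (SE, adjusted p = 0.00141). The remaining inhibitor genes that fell are scarcer and are named after their values were seen: Cdkn1a, the p21 inhibitor, was at 5.57 ± 0.294, 0.147 ± 0.0996 and 0.0915 ± 0.158 CPM, and Cdkn1c, the p57 inhibitor, at 3.10 ± 0.355, 1.31 ± 0.989 and 1.05 ± 0.301 CPM.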

How the data were processed

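Poly(A) RNA libraries were aligned and quantified by the authors with STAR and RSEM against mm10, per the submitters' processing notes; versions and the strand setting are not given in the sources used here. The deposited expected counts are RSEM's reads per gene, shared among genes that a read matches, per the file headers. TPM, per the file headers, was deposited as a level per effective length. Symbols came from GENCODE M21 (99.4% of IDs matched). Expected counts were rounded and tested with edgeR 4.0.16 in R 4.3.3 (TMM, filterByExpr, robust quasi-likelihood fit of 3 group means on 9 libraries, two-sided), leaving 13374 genes, with an adjusted p threshold of 0.05. CPM is TMM-scaled, and TMM factors were 0.945 to 0.947 in the untreated, 1.031 to 1.035 in the anti-IL-1b and 1.023 to 1.024 in the MCC950 group. Scripts were tested on simulated data. Every gene of the list may be named; values of every library are given for genes past the threshold in any comparison, at most 6 per role, and for genes at 0 in a whole group; other lists give up to 3 genes per direction with the smallest p. Members and lists were chosen with earlier results of these data known. Other settings tried were scaling by RLE, by upper quartile and by library totals, 2 other filters, DESeq2 1.42.0, limma 3.58.1 on log2(TPM + 1) and log2(TPM + 0.1), the replicate block, 6-sample fits, leaving out each library, and summed opposite-strand neighbours.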

Additional observations from a re-analysis of the deposited data

How the results depend on the processing

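With library totals in place of TMM factors, which moves the all-gene median on the log2 scale to 0.13 with the antibody and 0.125 with MCC950 and their higher and lower calls to 3929 and 1344 and to 4009 and 1587 (2066 and 2479, 2369 and 2552 with TMM), 9 list genes were higher and 3 lower with the antibody, and Ccnd2 turned to a log2 fold change of 0.089. With limma on log2(TPM + 1) or log2(TPM + 0.1), where 31 of the genes could be tested, 2 were lower with the antibody, 2 were higher and 1 lower with MCC950, and 1 was higher and 0 lower between the agents (2 lower at an unadjusted p under 0.05, and 2 by edgeR). With log2(TPM + 1), all-gene calls were 2517 higher and 820 lower with the antibody, 2088 and 1050 with MCC950 and 372 and 214 between the agents. Leaving out each library gave 5 to 7 higher and 4 to 5 lower genes with the antibody, 6 to 8 and 5 to 6 with MCC950, and 1 to 3 higher and 2 to 4 lower between the agents, where 4 were lower without anti-IL-1b replicate 1 (Mcm3 and Cdk4 added) and 1 was higher without anti-IL-1b replicate 2 or 3 (Cdk6 lost). The other counts stayed within 1.5 times. There were 2175 single-gene values over 117 gene and comparison combinations. Of these, 2097 stayed on their side of the threshold, 51 lost a call, 26 gained one and 1 reversed direction. Direction was compared only where the main or the other value was called, so uncalled values that changed sign count among the 2097. Deviations of same-numbered libraries correlated only weakly (r from -0.01 to 0.063 over 9 pairs), but 16 of 18 best matches had the same number. The replicate block gave 5 higher and 5 lower, 7 and 6, and 3 and 2 genes, adding Rb1 between the agents (0.23, adjusted p = 0.0312). Depth limits genes near 1 count per library, which is 0.0495 to 0.0656 CPM, such as Bub1 and Aurkb.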
